A study of Mus musculus with 2 samples.

Results

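A set of 9 genes that build and maintain the epidermal lineage was followed on expression arrays of mouse samples labelled as keratinocytes: Trp63, Tfap2a, Tfap2c, Klf4, Klf5, Grhl1, Grhl3, Ovol1 and Zfp750. They were chosen by symbol among the 20144 genes that could be named on the array. They were read by 11 of the 55678 non-control probes, every probe whose RefSeq accession belongs to a member. Trp63 and Tfap2a each had 2 probes and the other members had 1. All 11 probes were marked as well above background by the scanner software, here called detected, on both arrays, so no member was lost to a filter on dim signals.

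Transcription factors of this set act in sequence as a simple ectoderm becomes a stratified barrier. Trp63 establishes and maintains the basal layer, and mice without it form no stratified epidermis. The AP-2 factors Tfap2a and Tfap2c act with it in basal cells. Klf4, Grhl1, Grhl3, Ovol1 and Zfp750 act as cells leave the basal layer and build the cornified barrier.

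The samples were labelled as primary keratinocytes, P3, from Rac1/Rac3-DKO mice and from Rac3-KO mice, which the labels name as the control. Rac1 and Rac3 are small GTPases that relay signals to the actin cytoskeleton. Both groups lack Rac3 by label, so the comparison is of the added loss of Rac1. The labels used here do not give the way in which Rac1 was deleted, and each genotype was represented by 1 array, so nothing below has been checked in replicates and the genotypes could not be tested against each other. The error given below is the signal error of the scanner software, which covers a single spot and holds no variation between cultures or animals.

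Of all probes, 52.9% were detected on the array labelled DKO and 56.9% on the Rac3-KO array. Before scaling the array labelled DKO was dimmer, with a 75th percentile of the processed signal of 354 against 705 on the Rac3-KO array. Levels are therefore given as log2 of the processed signal relative to that percentile of the same array, and a difference is the level on the array labelled DKO minus that on the Rac3-KO array. A level of 1 probe cannot be set against that of another, because probes differ in brightness for the same amount of RNA. Rac1 itself did not bear out the genotype label: its 2 probes differed by -0.12 ± 0.20 and 0.28 ± 0.20. The part of the transcript that these probes read, and the deleted part, are not given in the sources used here, so they may check nothing, and the array is named by its label throughout. The Rac3 probe was detected on both arrays and differed by 0.24 ± 0.24.

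The brightest probe of a gene was the one with the highest mean level over both arrays. At that probe, 5 of the 9 factors were lower by 2-fold or more on the array labelled DKO, namely Trp63, Tfap2a, Grhl1, Grhl3 and Zfp750. None was higher by 2-fold or more (0 of 9). Over all 14145 genes measured on both arrays, 6.62% were lower by 2-fold or more and 7.71% higher by 2-fold or more. The median difference of the 9 factors was -1.13, against -0.01 for all measured genes. Of the other 4, Ovol1 lay just short of the threshold at 1.97-fold lower, Tfap2c and Klf5 were lower by less, and Klf4 was the single member with a difference above 0. At a threshold of 1.5-fold 7 of 9 were lower and 0 higher, where 16.5% and 18.2% of all measured genes were. At 3-fold 2 were lower and 0 higher, where 2.23% and 2.29% of all genes were. Of the 9 differences 8 were below 0, all but that of Klf4, as were 50.5% of those of all genes. With 1 array a group these counts describe the arrays and carry no p-value.

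**Figure D1:**
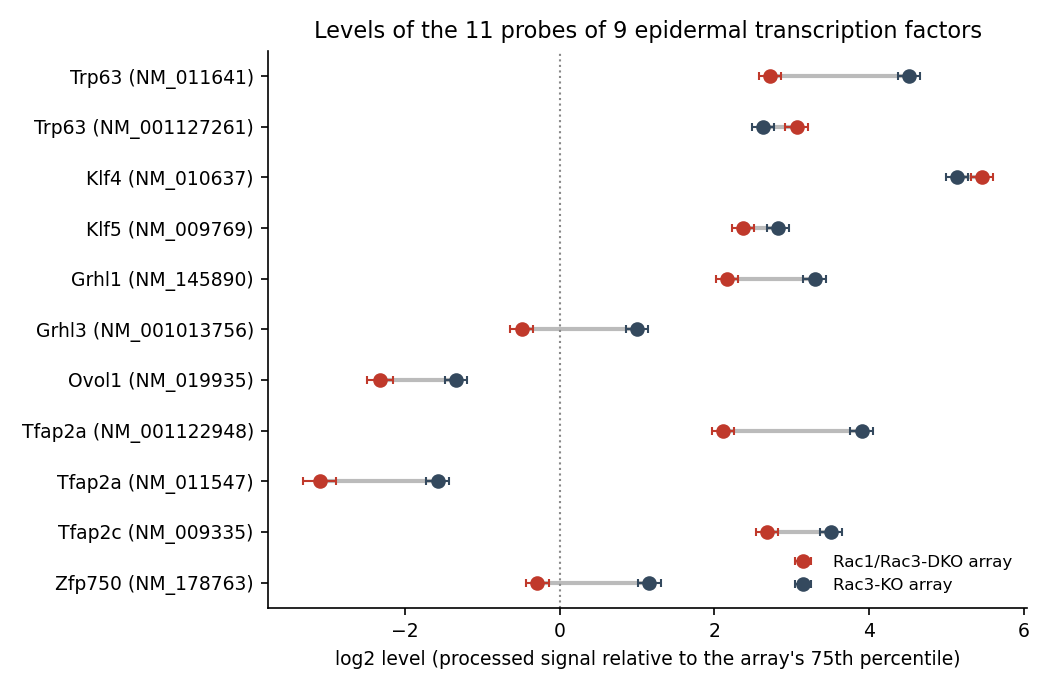
Log2 level of each of the 11 probes of the 9 factors (rows, with the RefSeq accession the probe is annotated to) on the array labelled DKO (red) and the Rac3-KO array (dark), with bars of 1 software signal error. In 9 of the 11 rows the red point lies left of the dark point; the exceptions are Klf4 and the second Trp63 probe.

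Trp63, the master regulator of stratified epithelia, gave opposite answers at its 2 probes. The probe annotated to NM_011641 had a processed signal of 2331 on the array labelled DKO, against 16133 on the Rac3-KO array. Its log2 levels were 2.72 ± 0.14 on the array labelled DKO and 4.52 ± 0.14 on the Rac3-KO array, a difference of -1.80 ± 0.20, or 3.48-fold lower. The probe annotated to NM_001127261, another Trp63 transcript, had signals of 2958 on the array labelled DKO and 4365 on the Rac3-KO array. After scaling it was 1.35-fold higher on the array labelled DKO, with levels of 3.06 ± 0.14 and, on the Rac3-KO array, 2.63 ± 0.14. The 95% interval of that difference from the software error was 0.031 to 0.831. Both signals were far from background, at least 116 times the lowest detected signal on the array labelled DKO and at least 186 times on the Rac3-KO array. The 2 probes lay 2.23 apart on the log2 scale. Among the 3578 genes with several measured probes, 17 (0.475%) had probes at least as far apart, and the median gap was 0.28. On the array labelled DKO the NM_001127261 probe was the brighter of the 2. The NM_011641 probe stood for the gene through its level on the Rac3-KO array. The mean over both probes was -0.68. Which Trp63 isoforms each probe reads is not given in the sources used here, so the values show unequal change of 2 probes of 1 gene and not which isoform was lower.

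Of 278 genes with several measured probes of which at least 1 was lower by 2-fold or more, 49 (17.6%) also had a probe with a difference above 0. A probe pair split in sign was thus not confined to Trp63 on these arrays, though so wide a gap was uncommon.

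Tfap2a, the AP-2 alpha factor, was lower at both of its probes. The brighter, annotated to NM_001122948, had a signal of 1529 on the array labelled DKO and 10537 on the Rac3-KO array. It differed by -1.79 ± 0.20 after scaling, or 3.46-fold lower. The dimmer probe, annotated to NM_011547, had signals of 41.3 on the array labelled DKO and 236 on the Rac3-KO array, and differed by -1.52 ± 0.26. The first of those signals was 2.06 times the lowest detected signal, the closest of any member to the floor. The gap between the 2 probes was 0.27, close to the median over genes with several probes.

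Tfap2c, the AP-2 gamma factor, was lower by less than 2-fold. Its signals were 2274 on the array labelled DKO and 8031 on the Rac3-KO array, and the scaled levels 2.68 ± 0.14 and, on the Rac3-KO array, 3.51 ± 0.14. The difference of -0.83 ± 0.20 corresponds to 1.78-fold lower. The 95% interval from the software error, -1.23 to -0.43, spanned the 2-fold threshold.

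Grhl1 and Grhl3, the grainyhead-like factors that drive desmosome and barrier genes, were both lower. Mice without Grhl3 have a defective skin barrier, and Grhl1 is known in mice for desmosomal cadherin expression and hair anchorage. Grhl1 had a signal of 1590 on the array labelled DKO and 6914 on the Rac3-KO array, a difference of -1.13 ± 0.20 or 2.19-fold lower. Grhl3 had a signal of 253 on the array labelled DKO and 1410 on the Rac3-KO array, and differed by -1.49 ± 0.21, or 2.81-fold lower. For Grhl1 the interval, -1.53 to -0.73, included the 2-fold threshold, while for Grhl3 it ran from -1.89 to -1.09 and lay beyond it.

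Klf4 and Klf5, zinc-finger factors of the Krüppel-like family, had the smallest differences of the set. Klf4, which is required for the skin barrier in mice and is also expressed in endothelial cells and macrophages, had signals of 15528 on the array labelled DKO and 24823 on the Rac3-KO array. After scaling its levels were 5.45 ± 0.14 on the array labelled DKO and 5.14 ± 0.14 on the Rac3-KO array, a difference of 0.32 ± 0.20. The interval of that difference, -0.08 to 0.72, included 0. Klf5, known from proliferating epithelial cells, had signals of 1832 on the array labelled DKO and 4991 on the Rac3-KO array. It differed by -0.45 ± 0.20, or 1.37-fold lower, with an interval of -0.85 to -0.05.

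Promoter sequence was at hand for 4 of the members, Klf4, Grhl1, Grhl3 and Tfap2a, in 6 windows of 300 bases that run from 250 bases before to 50 bases after an annotated start (RefSeq, GRCm38.p6). The windows of 3 genes are printed because they contrast a member that was not lower, Klf4, with Grhl1 and Grhl3, which were. The AP-2 motif GCCNNNGGC, which reads the same on both strands, is in capitals.
Klf4 (chr4:55532426-55532725, - strand): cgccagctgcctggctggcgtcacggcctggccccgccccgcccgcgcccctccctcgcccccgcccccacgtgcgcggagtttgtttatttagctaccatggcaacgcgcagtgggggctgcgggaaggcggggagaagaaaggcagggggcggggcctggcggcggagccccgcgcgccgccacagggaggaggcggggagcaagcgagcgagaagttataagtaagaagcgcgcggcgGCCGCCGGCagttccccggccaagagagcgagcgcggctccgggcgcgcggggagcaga
Grhl1 (chr12:24572037-24572336, + strand): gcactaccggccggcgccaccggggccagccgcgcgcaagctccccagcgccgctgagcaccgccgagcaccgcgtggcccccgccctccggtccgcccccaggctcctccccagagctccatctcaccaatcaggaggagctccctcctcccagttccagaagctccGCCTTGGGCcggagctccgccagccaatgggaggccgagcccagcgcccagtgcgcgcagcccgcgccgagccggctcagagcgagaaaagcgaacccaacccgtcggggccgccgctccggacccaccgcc
Grhl3 (chr4:135573583-135573882, - strand): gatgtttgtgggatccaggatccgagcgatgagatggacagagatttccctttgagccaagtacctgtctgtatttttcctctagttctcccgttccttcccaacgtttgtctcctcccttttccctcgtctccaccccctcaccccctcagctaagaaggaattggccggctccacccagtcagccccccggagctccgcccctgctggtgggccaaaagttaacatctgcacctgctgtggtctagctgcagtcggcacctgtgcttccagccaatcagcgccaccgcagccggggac
The motif occurred 1 time in the Klf4 window, 9 bases before the start, and 1 time in this Grhl1 window, 82 bases before the start. It was in neither the Grhl3 window nor the other Grhl1 window nor the 2 Tfap2a windows, and 16.6% of the 32851 windows of the same length held it. The grainyhead motif AACCGGTT, also the same on both strands, was in 0 of the 6 windows and in 0.146% of all windows. The short Krüppel-like motif CACCC, searched on both strands, was in 4 of the 6 windows, among them that of Grhl3 with 3 matches, and in 57.5% of all windows. A match is a run of letters in these windows and was not tied to binding; the presence of the AP-2 motif did not separate Grhl1 from Klf4.

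Ovol1 and Zfp750, factors of cells that leave the cell cycle and differentiate, were lower as well. Ovol1 was dim, with signals of 71.2 on the array labelled DKO and 279 on the Rac3-KO array, or 3.55 and 11.9 times the lowest detected signal on its own array. It differed by -0.98 ± 0.22, with an interval of -1.41 to -0.54. Zfp750, whose human counterpart activates the terminal differentiation programme together with KLF4, had signals of 290 on the array labelled DKO and 1576 on the Rac3-KO array. Its difference was -1.45 ± 0.21, or 2.73-fold lower, and the interval of -1.85 to -1.05 lay beyond 2-fold.

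**Figure D2:**
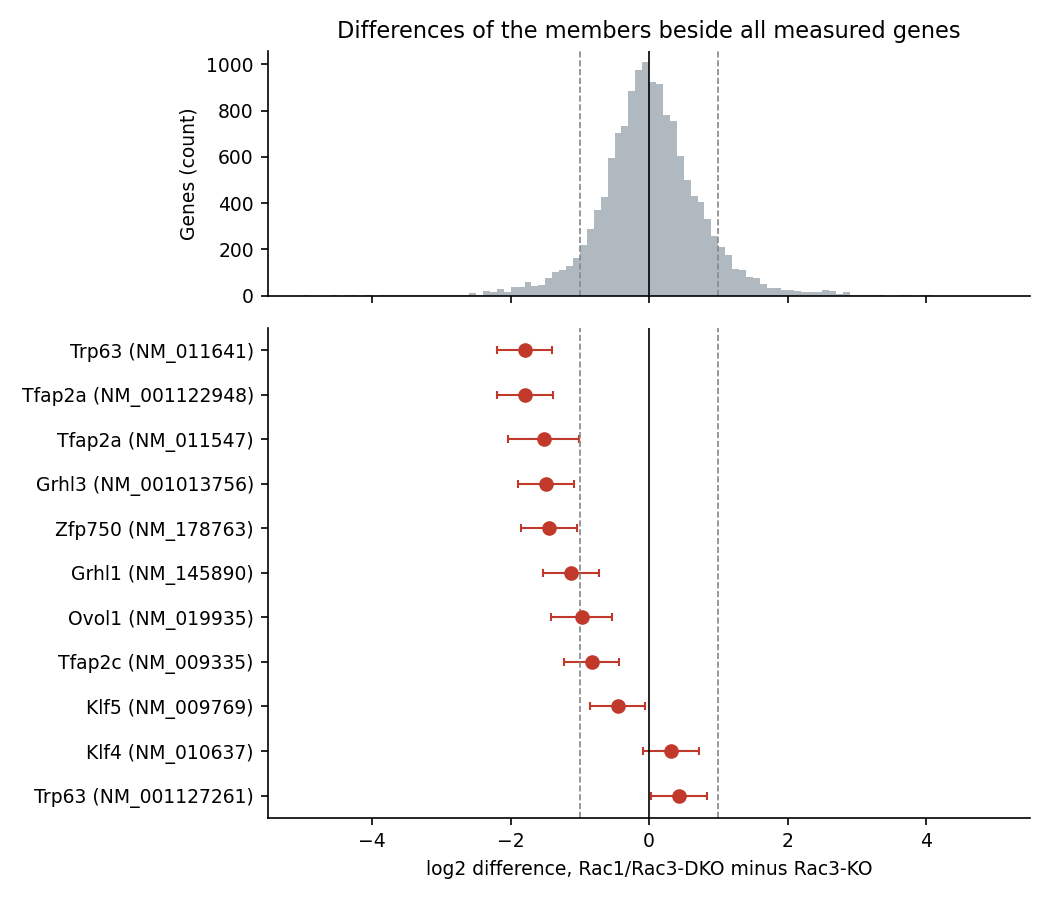
Upper panel, the number of the 14145 measured genes at each log2 difference, array labelled DKO minus Rac3-KO array, in bins of 0.1; lower panel, the difference of each of the 11 member probes with its 95% interval from the software error, dashed lines marking 2-fold. Trp63 at NM_011641 and Tfap2a lie in the left tail, and Klf4 and the second Trp63 probe lie right of 0.

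Placed among all measured genes, the brightest Trp63 and Tfap2a probes lay low: 1.48% of genes had a difference at or below that of Trp63 and 1.52% at or below that of Tfap2a. At the other Trp63 probe the share was 75.7%. For Grhl3, Zfp750 and Grhl1 the shares were 2.59%, 2.75% and 5.22%. Ovol1 and Tfap2c followed with 6.94% and 9.56%, Klf5 with 22.2% and Klf4 with 70.0%. Of the 8 gaps between neighbours in this order, 4 were wider than their own software error of about 0.29 and 1 had a 95% interval that lay above 0, the gap of 0.77 between Klf4 and Klf5. Grhl3 lay 0.30 above Tfap2a, Grhl1 0.32 above Zfp750 and Klf5 0.37 above Tfap2c, each past 1 error but with a 95% interval that included 0. The gaps within 1 error were 0.0065 between Tfap2a and Trp63, 0.04 between Zfp750 and Grhl3, and 0.15 both between Ovol1 and Grhl1 and between Tfap2c and Ovol1.

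Keratinocyte markers were lower on the same array. All 8 basal keratinocyte markers were measured, 5 of them lower by 2-fold or more, with a median difference of -1.37. Their summed level was 226 times the array's 75th percentile on the array labelled DKO and 615 times on the Rac3-KO array. The bright basal keratins Krt5 and Krt15 differed by -1.20 and -2.31. Of 8 differentiated keratinocyte markers with a probe, 7 were measured and all 7 were lower by 2-fold or more, with a median of -1.92 and a summed level of 30.7 on the array labelled DKO and 314 on the Rac3-KO array. Krt10 and Krt1 differed by -4.50 and -4.95, and Ivl was detected on the Rac3-KO array only. Keratinocyte markers were thus present on both arrays. Markers of muscle and fibroblasts, which the label of primary keratinocytes does not name, were present as well. On the array labelled DKO their summed levels were 2504 and 2496. These sums cannot be ranked against the 226 of the basal keratinocyte markers, because probes differ in brightness. By their presence, the muscle and fibroblast markers do not bear out a sample of keratinocytes alone. In RNA of a mixed sample, fewer keratinocytes and less of a transcript per keratinocyte cannot be told apart.

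Set against the basal markers, most of the factors' differences were small. Relative to the median of those 8 markers, 5 of the 9 factors lay above and 4 below. Trp63 lay at -0.43, Tfap2a at -0.42, Grhl3 at -0.12 and Zfp750 at -0.08. Grhl1, Ovol1 and Tfap2c lay at 0.24, 0.39 and 0.54. Klf5 lay at 0.91, and Klf4 at 1.68, above all 8 basal markers. Relative to the median of the 7 differentiated markers all 9 factors lay above, from 0.12 for Trp63 to 2.24 for Klf4.

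Markers of other cell types were present on both arrays and moved with the groups. All 10 muscle markers were measured and 9 were higher by 2-fold or more on the array labelled DKO, with a summed level of 2504 there and 456 on the Rac3-KO array; Tnnc2 and Tnni2 differed by 2.40 and 2.66. All 6 fibroblast markers were measured, with summed levels of 2496 on the array labelled DKO and 1428 on the Rac3-KO array and a median difference of 0.79. The 6 leukocyte markers with a probe had summed levels of 85.1 and, on the Rac3-KO array, 35.3, with a median of 1.02, and the 6 endothelial markers 32.9 and, on the Rac3-KO array, 16.6, with a median of 0.61. Of 6 adipocyte markers 5 were measured, with a median of 0.57, and Lep was detected on neither array. Melanocyte markers (5 of 5 measured) had a median of -1.30 and hair follicle sheath markers (5 of 5) a median of -1.82. Of 5 Schwann cell markers 3 were measured, with a median of -0.39, and Cdh19 was detected on neither array. The part of these cell types in the differences of the 9 factors was not tested.

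**Figure D3:**
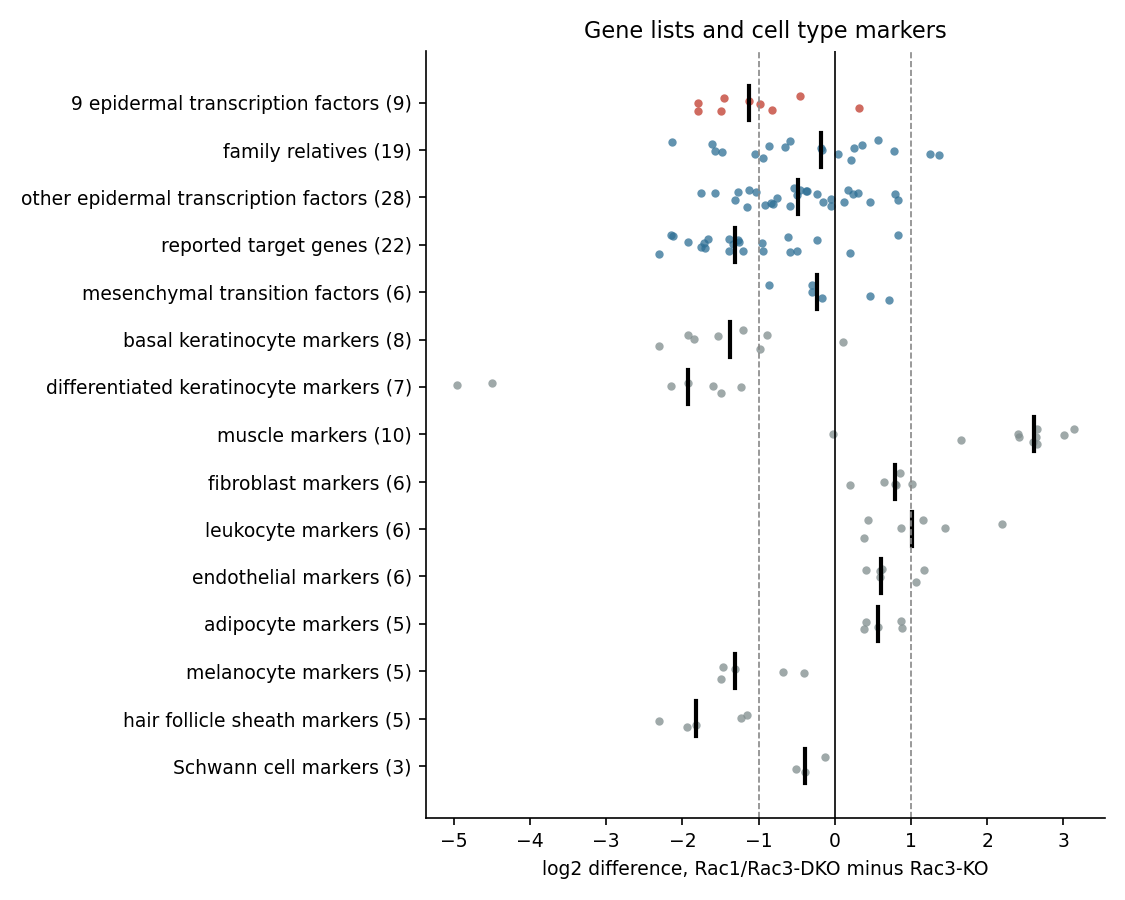
Log2 difference, array labelled DKO minus Rac3-KO array, of each measured gene (point) in the 9 factors, 4 further gene lists and the cell type markers, with the number of measured genes in brackets and the median as a black bar. The 9 factors (median -1.13) lie beside the basal keratinocyte markers (-1.37) and the reported targets (-1.30), and muscle markers (2.62) lie farthest to the right.

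The gene families of the members were not uniform. All 3 grainyhead-like genes were lower by 2-fold or more (Grhl1 lay above 0 relative to the basal markers), with Grhl2, which keeps epithelial junction genes on, at -2.13 ± 0.20 and signals of 552 on the array labelled DKO and 4806 on the Rac3-KO array. Of 5 AP-2 genes 4 were measured, and all 4 had a difference below 0. Of all measured genes 6.62% were lower by 2-fold or more and 50.5% had a difference below 0. Tfap2b and Tfap2e differed by -1.57 ± 0.20 and -1.62 ± 0.21, and Tfap2d was detected on neither array. In the p53 family, Trp73 differed by -1.48 ± 0.21 and the tumour suppressor Trp53 by -0.94 ± 0.21. Ovol2, the relative of Ovol1 that holds epithelial cells from a mesenchymal state, differed by -0.18 ± 0.20.

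Krüppel-like genes as a family were not lower on the array labelled DKO relative to the 75th percentile, whereas on the scale of spike-in RNA nearly all genes were. Of 17 family members 15 were measured, the 2 that are in the set included, and their median difference was 0.21. Outside the set, Klf16 was lower by 2-fold or more at -1.04 ± 0.21, and Klf9 and Klf15 were higher by 2-fold or more at 1.36 ± 0.20 and 1.26 ± 0.20. Both Klf9 and Klf15 are known as genes induced by glucocorticoids, and a response to glucocorticoids was not tested here. The other 10 measured relatives lay between those values, among them Klf2 at -0.17, Klf3 at 0.78, Klf6 at 0.25 and Klf10 at -0.66. Klf1 and Klf17 were not measured. Over all 23 relatives of the members, 19 were measured, 5 were lower by 2-fold or more and 2 higher by 2-fold or more. These are 26.3% and 10.5%, beside 6.62% and 7.71% of all measured genes.

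Other transcription factors known in epidermis were lower in part. Of 33 listed, 28 were measured, 7 were lower by 2-fold or more and 0 higher by 2-fold or more, with a median of -0.48. Of all measured genes 6.62% were lower and 7.71% higher by as much. Bnc1, a zinc-finger factor of basal keratinocytes, differed by -1.58 ± 0.21 and the POU factor Pou3f1 by -1.31 ± 0.20. Satb1, a chromatin organiser downstream of p63, differed by -1.27 ± 0.20, and Gata3, which acts in barrier lipid synthesis and the inner root sheath, by -1.15 ± 0.20. Another POU factor of the epidermis, Pou2f3, was detected on the Rac3-KO array only, with signals of 22.3 on the array labelled DKO and 160 on the Rac3-KO array. Its dim signal lay above the lowest detected signal, 20.1, so its at-least fold of 3.61 equals the measured ratio. That difference was -1.85 ± 0.38, and the fold is not a strict lower bound. Dlx3, a homeobox factor of differentiating keratinocytes, had the highest difference of the list at 0.83 ± 0.20.

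Genes reported as targets of the factors were lower in most cases. Of 22 listed, all 22 were measured, 14 were lower by 2-fold or more and 0 higher by 2-fold or more, with a median of -1.30. The shares over all measured genes were 6.62% lower and 7.71% higher. The list was chosen with earlier results of these data known, so its counts describe the list and are no independent support. Leaving out those that are also on another list, 9 of 15 were lower by 2-fold or more. Rab25, a vesicle GTPase gene known as a Grhl2 target, differed by -2.31 ± 0.21 and the desmosomal cadherin gene Dsg1a, a Grhl1 target, by -2.15 ± 0.21. The integrin regulator gene Fermt1 differed by -2.12 ± 0.30 and the basal keratin gene Krt14, a p63 target, by -1.92 ± 0.20. Divided by the reported regulator, a grouping made after the values were seen, 7 of 7 targets of the Grhl family and 7 of 13 targets of Trp63 were lower by 2-fold or more. Their medians were -1.70 and -1.20. The list holds Krt5, Krt14 and Dsg1a, which are also keratinocyte markers, and the share of keratinocyte RNA was not separated from the level of the targets.

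Transcription factors of the epithelial to mesenchymal transition, which Ovol and Grhl factors are known to hold down, lay on both sides of 0. Of 6 measured, 0 were lower by 2-fold or more and 0 higher by 2-fold or more, with a median of -0.23. With 6.62% of all measured genes lower and 7.71% higher by as much, such counts of 6 genes say little. Snai2, which is also a factor of basal keratinocytes, differed by -0.86 ± 0.20 and Zeb1 by 0.71 ± 0.20. Fibroblast markers, whose cells express several of these factors, had a median of 0.79 beside them.

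**Figure D4:**
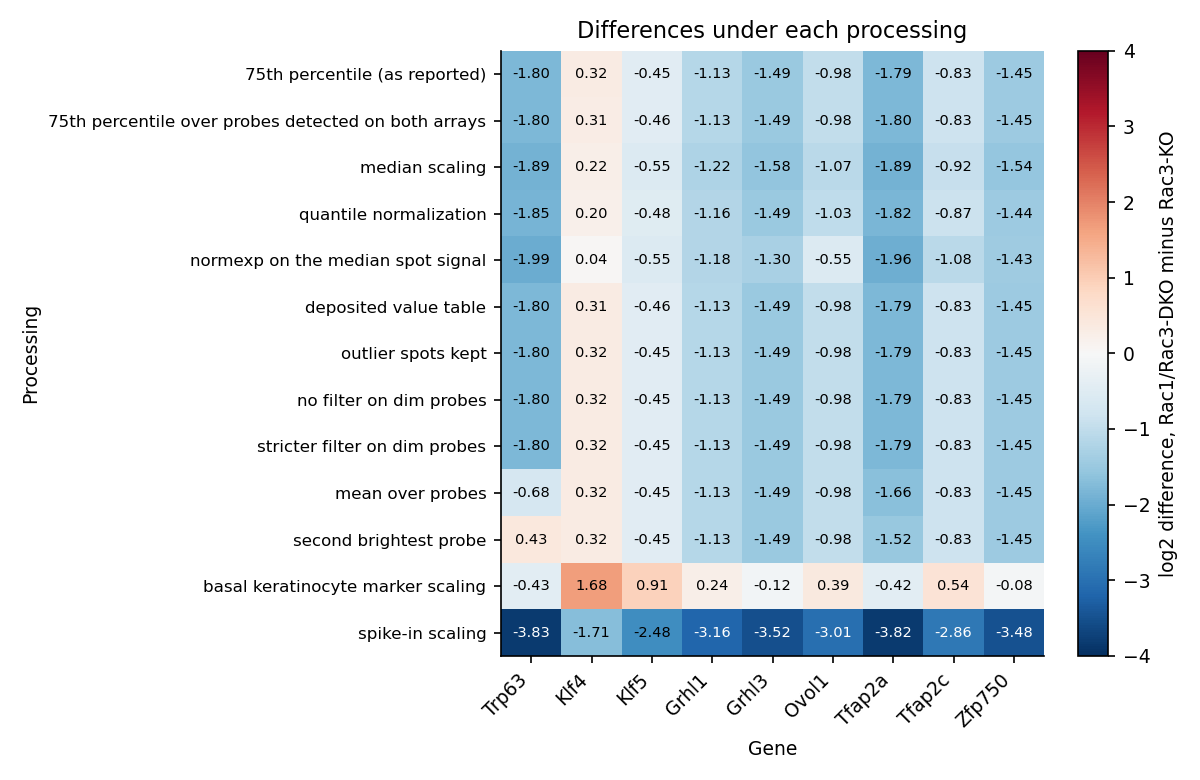
Log2 difference, array labelled DKO minus Rac3-KO array, of each of the 9 factors (columns) under the reported and 12 other ways of processing (rows), with colour from blue (lower) to red (higher). The rows that differ for all factors are scaling on basal keratinocyte markers (from -0.43 to 1.68) and scaling on spike-in RNA (all below 0). Trp63 also moves with the second brightest probe (0.43) and with the mean over probes (-0.68). With normexp background correction Ovol1 is at -0.55 and Klf4 at 0.04.

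The scale between the arrays set how low the factors appeared. Spike-in RNA added to the labelling was brighter on the array labelled DKO by 1.04 (log2), while the 75th percentile was lower by 0.99. On the spike-in scale 9 of 9 factors were lower by 2-fold or more, but so were 92.7% of all measured genes. On the scale of the basal keratinocyte markers 0 of 9 were lower by 2-fold or more and 1 of 9, Klf4, was 2-fold or more higher, where 0.396% of all measured genes were lower and 73.5% higher by as much. The values given above are therefore relative to the 75th percentile of each array. Settings that left this scale in place kept Trp63 at its brightest probe, Tfap2a, Grhl1, Grhl3 and Zfp750 lower by 2-fold or more.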

How the data were processed

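RNA of 1 sample per genotype was amplified, labelled with Cy3 and hybridised to 1-colour Agilent arrays, as the labels' protocols state. Spot intensity in the deposited scanner files was background-subtracted and detrended by the scanner software, which per the file headers was Feature Extraction 10.10.1.1 and per the submitters' processing notes Agilent Feature Extraction 9.1. Both arrays share a slide and a scan, per the file headers. The value table that the authors deposited is in log2 and equals the log2 processed signal minus 8.47 (array labelled DKO) or 9.46 (Rac3-KO array) for 100% of 55246 probes spotted 1 time, within 0.001. Its column medians are -3.62 and -3.72 in the same order, and a 1-colour level has no direction to settle.

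Control spots and outlier spots (190 on the array labelled DKO and 155 on the Rac3-KO array, no member among them) were left out, log2 signals were averaged per probe, and each array's 75th percentile was subtracted (Python 3.11.15, pandas 2.3.3). No spot was saturated. Probes were named through their unversioned accession in the RefSeq table of GRCm38.p6, which named 26580 probes; the other 29098 have no name here. The probe with the highest mean level over both arrays, called the brightest, stood for its gene. A gene was counted as measured where the software marked that probe well above background in both samples. An at-least fold divides the detected signal by the dim one or by the lowest detected signal of the dim array, whichever is higher, after scaling. Intervals are 1.96 times the software error. Over 273 probes spotted at least 8 times the median SD of the log2 difference was 0.09. The number of arrays limits precision.

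All 9 members were named by the rule. From each further list up to 5 genes each way that were at least 2-fold apart were named, or the most extreme each way, with every gene detected on 1 array and at least 2-fold apart. Relatives were named freely, and the 2 brightest markers of a list could be. The members and lists were chosen with earlier results of these data known, and supporting details such as Ivl, Lep and Cdh19 after their values were seen. Some genes that the rule names are not reported here. No test was run. The counting was tested on simulated data. Alternatives were other scalings, limma 3.58.1 normexp background correction (offset 50), probe rules, dim filters, outlier spots, the deposited table and thresholds of 1.5-fold and 3-fold. Normexp on the mean spot signal was not run because the files used here have the median spot signal, which replaced it after the data were seen.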

Additional observations from a re-analysis of the deposited data

How the results depend on the processing

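Under 8 of the 12 other settings of scale, spots, probes, filters or background the count of the 9 factors at least 2-fold lower was 5 or 6 and their median stayed between -1.22 and -1.13. With the mean over probes or the second brightest probe the count was 4 and the median -0.98, because Trp63 moved to -0.68 and reversed to 0.43. Ovol1 was -0.55 with normexp. Under the 8 settings above, 4.70% to 8.14% of all measured genes were lower by 2-fold or more. At 3-fold 2 of the 9 factors were lower, where 2.23% of all measured genes were.

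On basal keratinocyte markers the median of the factors reversed to 0.24 (Grhl1 to 0.24), with 0 lower and 1 higher. The same scale gave medians of 1.19 for relatives, 0.89 for other epidermal factors, 0.064 for targets (reversed) and 1.14 for mesenchymal factors, with 10, 12, 3 and 5 higher and 0 lower in each of the first 3; of all measured genes 73.5% were higher and 0.396% lower on it. On the spike-in scale the factors' median was -3.16 with 9 lower; relatives, other factors, targets and mesenchymal factors had medians of -2.21, -2.51, -3.33 and -2.26, with 17, 28, 22 and 6 lower, and 0 relatives were higher, where 92.7% of all genes were lower. By construction both scales shift every gene alike: the median of all genes moved to 1.36 and -2.04. Median scaling shifted it to -0.10.

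At 1.5-fold, 9 of 19 relatives and 12 of 28 other factors were lower, and 2 of 28 other factors and 1 of 22 targets higher. Of the 6 mesenchymal factors 1 moved each way. Of all measured genes 16.5% were lower and 18.2% higher by as much. At 3-fold 2 of 19 relatives, 1 of 28 other factors and 8 of 22 targets were lower and 0 relatives higher. Of all measured genes 2.23% were lower and 2.29% higher by 3-fold or more. With normexp 1 of 19 relatives was higher and 1 of 6 mesenchymal factors lower, where 5.43% and 4.70% of all measured genes were. The cause of these shifts was not tested. No paired analysis was possible because each genotype has 1 array. Dim signals limit Ovol1 and the second Tfap2a probe.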

Other observations

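Other epidermal factors with several probes were chosen after their values were seen. The 2 Grhl2 probes differed by -2.13 ± 0.20 and -1.14 ± 0.29, both below 0. The 3 Trp73 probes differed by -1.48 ± 0.21, -0.43 ± 0.21 and -1.61 ± 0.34. The 4 probes of Casz1, a zinc-finger gene, lay between -1.01 and -0.85.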
